A study of Mus musculus with 6 samples.

Results

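Listed differentially methylated regions (DMRs) near the Hox cluster genes were compared between infant and young adult lung endothelial cells (EC). The Hox cluster genes were taken as 38 genes, with 10 in HoxA, 10 in HoxB, 9 in HoxC and 9 in HoxD. A DMR belonged to them when its midpoint lay within 10 kb of the RefSeq body of at least 1 of these genes in the mouse genome GRCm38 (mm10). Of the 18333 listed DMRs, 47 met this rule. The cells came from untreated C57BL/6N mice, which the study's methods describe as female. The infant group had 3 samples, from mice 8 to 10 days old, and the young adult group had 3 samples, from mice 8 to 12 weeks old. Both groups were sorted from lung by FACS for CD31 and CD34, without cells carrying PTPRC, LYVE1, LY76 or PDPN and without dead cells, and were measured by T-WGBS, a form of bisulfite sequencing of the whole genome in which a transposase prepares the library and unconverted cytosines are read as methylated.

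Each DMR carried 1 mean methylation level per group, made by the authors, so no value here has a replicate error and no difference was tested again. A DMR with a higher young adult than infant mean is called a gain, and the reverse a loss. The DMRs were chosen by the authors' test on the same 6 samples, so the sizes below are those of selected regions. How many reads stand behind each DMR is unknown. The values come from DNA of sorted cell populations, in which a change within cells and a change in the mix of cells cannot be told apart. The files used here hold no expression values, so the EC label could not be checked against markers.

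Hox genes encode homeodomain transcription factors that give cells their position along the body axis. Within a cluster the genes are read in the same direction, and they are numbered from the 3′ end, whose genes are switched on early and towards the head, to the 5′ end, whose genes act later and towards the tail. Genes of the same number in different clusters are paralogs. Inactive Hox clusters are classical targets of Polycomb repression, and their many CpG islands are usually free of DNA methylation. *Hoxa5* and *Hoxb5* are known for patterning the lung airways, and several Hox genes have been studied in angiogenesis.

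The sequences below show the regions with the largest gain, the largest loss or the most CpGs in a cluster. They are printed 5′ to 3′ on the plus strand of GRCm38.p6 from the first to the last CpG of the DMR, and capitals mark each CpG. The first region lay just 3′ of *Hoxb2* and had the largest gain of all 47 DMRs. The second, in an intron of *Hoxb3*, was among the regions with 6 CpGs, the most in HoxB. The third, in the last exon of *Hoxb5*, had the largest loss. The fourth was the DMR of HoxC. The fifth, in an intron of *Hoxa3*, held 9 CpGs, the most of any of the 47. The sixth, in the last exon of *Hoxa6*, had the largest gain of HoxA.
Downstream of *Hoxb2*, chr11:96354573-96354625: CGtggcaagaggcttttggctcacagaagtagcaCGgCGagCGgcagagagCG
Intron of *Hoxb3*, chr11:96333067-96333135: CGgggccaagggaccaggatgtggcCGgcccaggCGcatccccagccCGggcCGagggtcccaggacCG
Last exon of *Hoxb5*, chr11:96305373-96305434: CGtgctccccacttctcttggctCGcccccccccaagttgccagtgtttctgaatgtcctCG
Body of *Hoxc4*, chr15:103027153-103027184: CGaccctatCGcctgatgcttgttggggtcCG
Intron of *Hoxa3*, chr6:52177665-52177920: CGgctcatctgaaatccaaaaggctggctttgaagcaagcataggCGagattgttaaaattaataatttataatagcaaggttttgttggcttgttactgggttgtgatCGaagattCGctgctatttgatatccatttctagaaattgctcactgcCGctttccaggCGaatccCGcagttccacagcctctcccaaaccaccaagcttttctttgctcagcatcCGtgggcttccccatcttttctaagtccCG
Last exon of *Hoxa6*, chr6:52205717-52205812: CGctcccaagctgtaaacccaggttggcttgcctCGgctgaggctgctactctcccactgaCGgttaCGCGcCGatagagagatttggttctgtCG

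The Hox DMRs lay almost entirely in HoxB and HoxA, and nearly all of them gained methylation in young adult EC. HoxB on chromosome 11 held 31 DMRs, of which 29 were gains and 2 were losses. HoxA on chromosome 6 held 15, with 14 gains and 1 loss. HoxC on chromosome 15 held 1 gain, and HoxD on chromosome 2 held 0 DMRs. In all, 44 of the 47 Hox DMRs were gains, which is 93.6% beside 54.1% of the whole list. The clusters were similar in CpG content, and the windows of 10 kb around their genes held 3168 CpGs in HoxB, 3369 in HoxA, 2718 in HoxC and 3068 in HoxD. Of these CpGs, 3.82% lay inside a DMR in HoxB, 2.11% in HoxA, 0.11% in HoxC and 0% in HoxD, beside 0.321% of all reference CpGs. How many of these CpGs reached the coverage that the authors required is unknown, so the lack of a listed DMR does not show that methylation stayed the same.

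**Figure D1:**
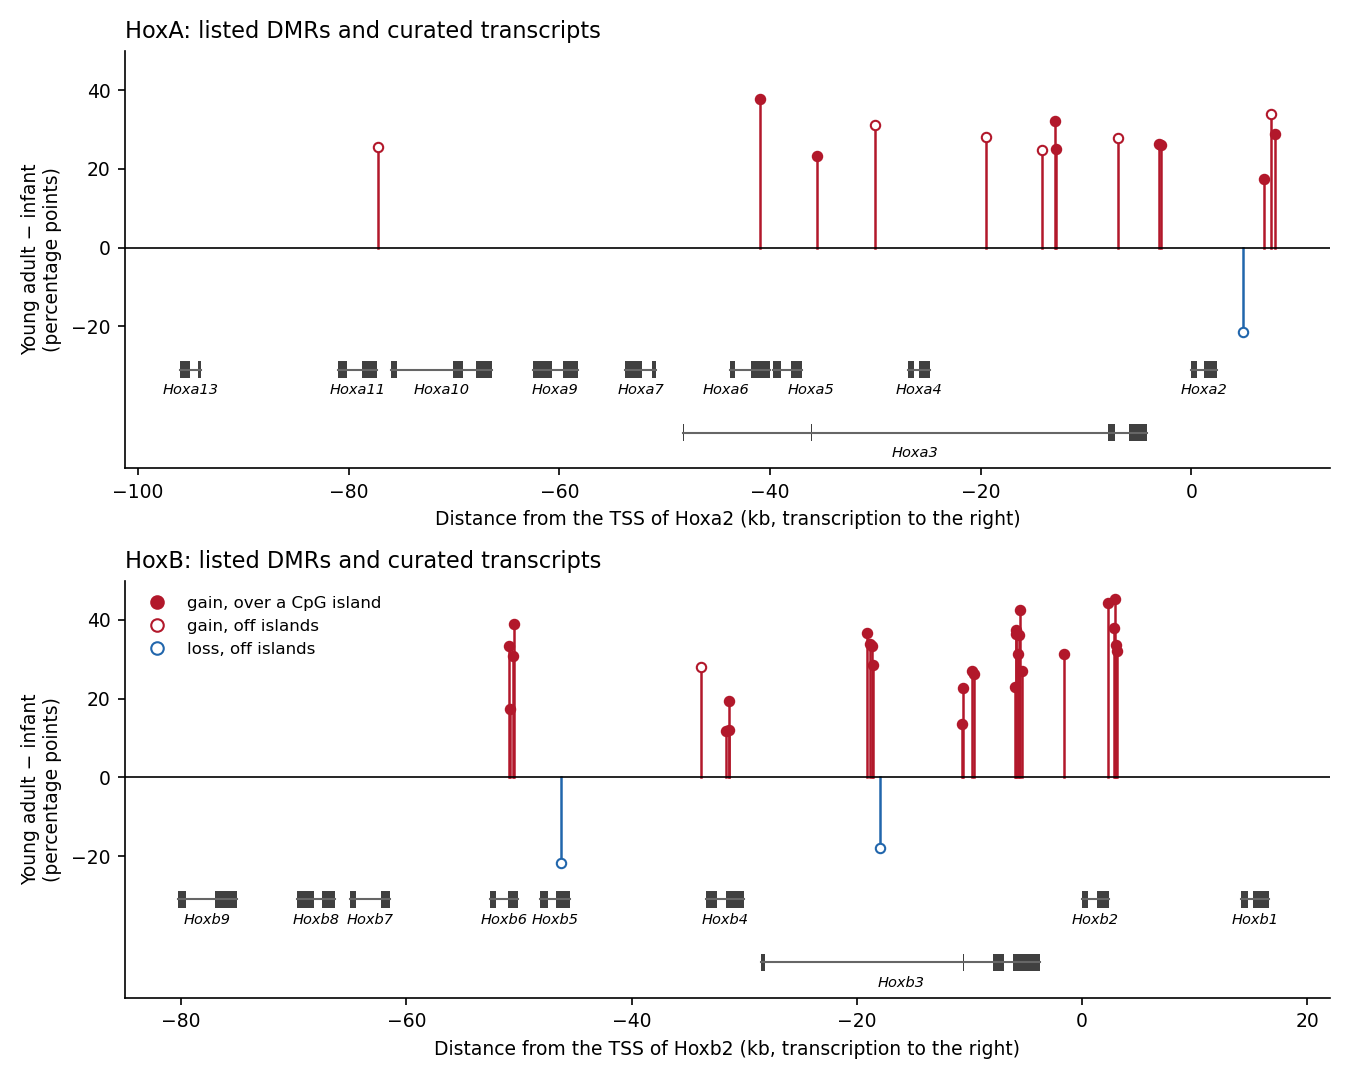
Difference between the young adult and the infant mean (percentage points, y axis) of each DMR of HoxA (top) and HoxB (bottom) against the distance from the transcription start site (TSS) of *Hoxa2* or *Hoxb2* (kb, x axis), with exons (boxes) of the curated transcripts below. Red marks gains and blue losses, and filled points overlap a CpG island. The 29 gains of HoxB stand between *Hoxb6* and *Hoxb2*, 27 of them in tight groups and 2 alone, and no DMR lies over *Hoxb9*, *Hoxb8*, *Hoxb7* or *Hoxb1*, while the gains of HoxA are more spread out. *Hoxb13* is off the scale to the left and had no DMR.

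In HoxB the DMRs covered only the middle and the 3′ side of the cluster. The first and the last DMR were 54.1 kb apart, from the last exon of *Hoxb6* to the region just 3′ of *Hoxb2*. This span held 1370 of the 3168 CpGs, and the other 1798 CpGs, on either side of it, held no DMR. They included those in the bodies of *Hoxb13*, *Hoxb9*, *Hoxb8*, *Hoxb7* and *Hoxb1*. When the genome was divided into 13181 consecutive tiles of 200 kb, the tile with HoxB held 30 gains among 32 DMRs. This was the highest number of gains of any tile, and the next tile had 23. The median over the 5926 tiles with a DMR was 2 DMRs, and 18 tiles held 31 or more DMRs of either direction.

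*Hoxb6*, a gene of the middle of the cluster that acts in the thoracic region, carried 4 gains within 557 bp of its last exon. The 2 that lay in the coding part rose from 13.1% in infant EC to 46.5% in young adult EC (chr11:96300695-96300759) and from 5.85% to 23.3% (chr11:96300790-96300812). In the untranslated part that follows, the means went from 32.3% to 63.2% (chr11:96301014-96301104) and from 18.9% to 58.0% (chr11:96301150-96301251). The neighbouring *Hoxb5* had the opposite change. Its single DMR, with 3 CpGs in the untranslated part of its last exon, fell from 61.7% to 40.1% and was the largest of the 3 Hox losses at -21.6 percentage points. It lay outside CpG islands as defined here. The 4 gains of *Hoxb6* all overlapped one.

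*Hoxb4*, a regulator of blood stem cells, had the 2 smallest gains of HoxB and the only DMR within 1 kb of a TSS of the 38 genes. That DMR (chr11:96317764-96317777) was 497 bp upstream of the TSS and rose from 32.0% to 59.9%. The microRNA gene *Mir10a*, which lies inside the cluster upstream of *Hoxb4*, ended 490 bases before it. Inside *Hoxb4* itself 3 DMRs of 3 CpGs each started at 1.05% to 6.16% and reached 12.7% to 25.5%. The intron region (chr11:96319938-96320044) went from 1.05% to 12.7%. The 2 regions in the coding part of the last exon went from 3.54% to 15.7% (chr11:96320212-96320262) and from 6.16% to 25.5% (chr11:96320273-96320284). The differences were 11.7, 12.2 and 19.3 points, of which the first 2 lie close to the minimum of 10% that a listed DMR had to reach.

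*Hoxb3*, which patterns the hindbrain and the pharyngeal arches, held more DMRs than any other Hox gene, in one of the longest records. Its RefSeq record spans 40.8 kb, runs over *Hoxb4* and contained 19 gains and 1 loss, including the DMRs described for *Hoxb4*. Per 10 kb of the record it had 4.65 gains, close to the 4.57 of *Hoxb6* and below the 8.90 of the short *Hoxb4*. Of 21631 protein-coding genes, 2 had more gains in the body and 2 others had the same number. This rank counts the gains at *Hoxb4* as well and was not adjusted for gene length. Apart from those in and just upstream of *Hoxb4*, the gains formed 3 groups at the 3′ part of the gene. The first group, in the first intron of the curated transcript, had 4 gains and the loss within 1317 bp. Its gains started at 31.4% to 55.4% in infant EC and reached 65.2% to 88.9%, and the region with 6 CpGs printed above went from 37.2% to 65.9%. The loss (chr11:96333597-96333713) lay 461 bp further 3′ and fell from 20.3% to 2.23%, so that regions with opposite changes stood beside each other.

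The second group of *Hoxb3* lay at its second exon and had lower levels. Its 4 gains started at 0% to 19.0% and reached 13.5% to 46.0%. The region in the untranslated second exon (chr11:96341078-96341090) rose from 5.86% to 28.6%, and one further 3′ with 6 CpGs (chr11:96342045-96342105) rose from 17.5% to 43.9%.

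The third group covered the coding part of the last exon, the exon type that carries the homeobox in Hox genes, with 7 gains and 30 CpGs in 686 bp. No other run of Hox DMRs had as many. The first of the 7 was listed at 0% in infant EC and reached 22.9%. The next 3 went from 2.08% to 38.5%, from 10.2% to 47.5% and from 2.73% to 34.0%. The last 3 went from 6.76% to 42.9%, from 8.92% to 51.4% and from 33.0% to 59.9%. Infant levels were thus below 11% in 6 of the 7, and all 7 reached intermediate levels in young adult EC. The largest difference of this exon was 42.5 points over 6 CpGs (chr11:96346086-96346135). The antisense transcript gene *Hoxb3os* overlaps this exon.

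*Hoxb2*, which sets the identity of hindbrain segments, had the 2 largest gains of all. They stood at its 3′ end, and no DMR lay within 1 kb of its TSS. The region in the untranslated part of the last exon (chr11:96353775-96354018) rose from 30.2% to 74.6%. Just downstream, 4 further gains followed each other with gaps of 13 to 77 bp. The second of them is the first sequence above, with 5 CpGs and a rise from 9.47% to 54.7%, a difference of 45.3 points. The other 3 started at 9.51% to 17.8% and reached 43.1% to 55.6%. A single gain of 3 CpGs upstream of *Hoxb2* stood apart from these. It was the most methylated of all Hox DMRs, going from 64.3% in infant EC up to 95.5% in young adult EC.

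**Figure D2:**
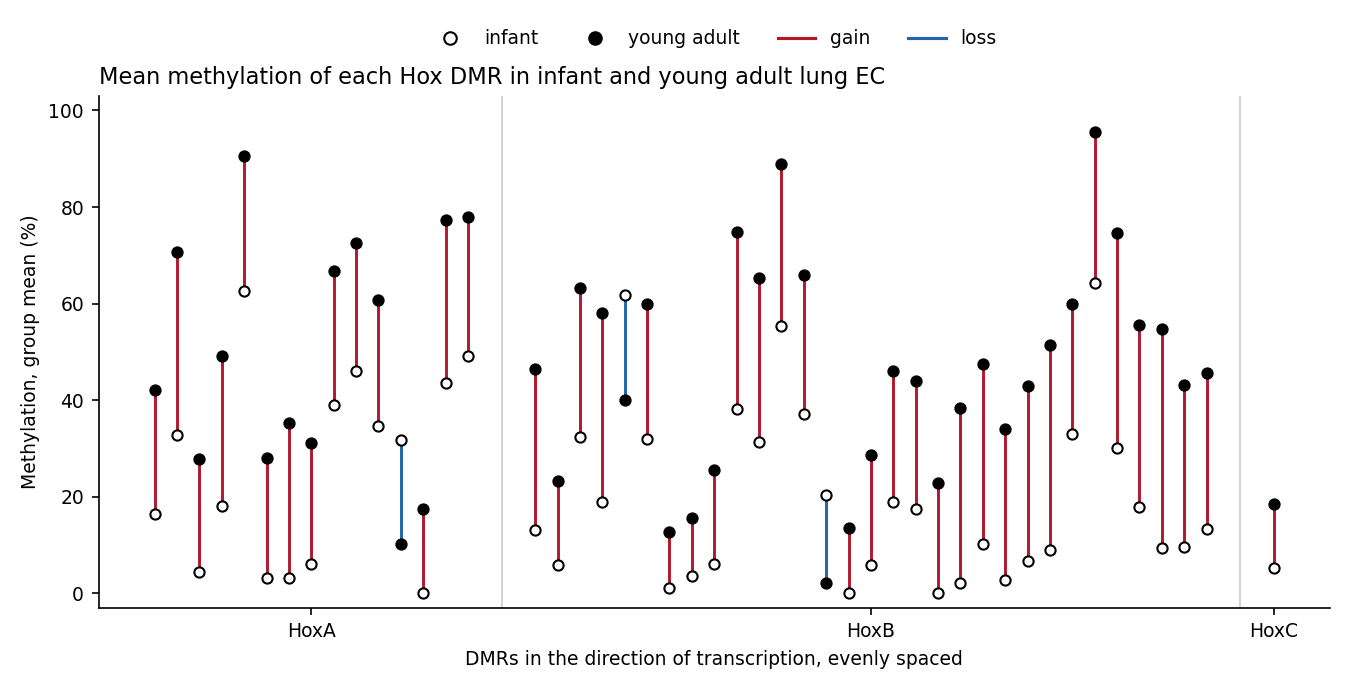
Mean methylation (%, y axis) of each of the 47 Hox DMRs in infant (open points) and young adult EC (filled points), ordered in the direction of transcription within HoxA, HoxB and HoxC and evenly spaced (x axis). Red lines join gains and blue lines losses. Of the 44 gains, 28 start below 20% and 3 end above 80%.

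HoxA had fewer gains, which were more scattered and started from higher levels. *Hoxa3*, a gene needed for the thymus and parathyroid, held 8 gains in a RefSeq record of 44.0 kb that runs over *Hoxa4*, *Hoxa5* and *Hoxa6*. The DMR with 9 CpGs, one of 3 in the third intron of the curated transcript, rose from 3.16% to 35.3%. A region of 8 CpGs in the second intron, upstream of *Hoxa4*, rose from 18.0% to 49.1% (chr6:52194778-52194911). The other 5 intronic gains started at 3.22% to 62.6%. The largest HoxA gain lay in the last exon of *Hoxa6*, in its untranslated part, and rose from 32.9% to 70.6%, a difference of 37.7 points. The antisense gene *Hoxaas3* overlaps it.

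*Hoxa2*, which controls the second pharyngeal arch, had no DMR in its body but 7 within 10 kb, 1 of them inside *Hoxa3*. On its 5′ side, 2 gains inside the antisense gene *Hoxaas2* rose from 34.6% to 60.7% and from 46.1% to 72.5%. On its 3′ side lay 3 gains and the loss of HoxA. The 2 gains with the most CpGs there, 7 and 5, rose from 49.2% to 77.99% and from 43.5% to 77.4%, at 7944.5 and 7602 bp from the TSS of *Hoxa2*. The third, with 3 CpGs, was listed at 0% in infant EC and reached 17.4%. The loss, at 4879.5 bp from this TSS and inside the non-coding gene *Hotairm1*, fell from 31.7% to 10.3%. At the 5′ side of HoxA a single DMR lay at the 3′ end of *Hoxa11*, a gene of limb and uterus development. It was the widest Hox DMR at 333 bp and rose from 16.5% to 42.1% over 4 CpGs.

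HoxC and HoxD gave almost no DMRs. The DMR of HoxC lay in the record of *Hoxc4*, 7227 bp upstream of the curated TSS, and rose from 5.30% to 18.4% over 3 CpGs. In HoxD there was no DMR within 100 kb of any of the 9 genes, and the nearest was 169902 bp from *Hoxd1*. *Hoxd3*, the HoxD paralog of *Hoxb3* and *Hoxa3*, held 818 CpGs in its record and 0 DMRs. *Hoxb3* with 928 CpGs had 20 and *Hoxa3* with 1153 CpGs had 8.

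By gene, 15 of the 38 members had a DMR within 10 kb, and each of these 15 had a gain. This is 39.5%, beside 27.6% of protein-coding genes with any DMR and 19.1% with a gain within the same distance. A loss was within 10 kb of 5 members, or 13.2% beside 12.8% of protein-coding genes, which is near the background. A gain lay in the body of 7 members, or 18.4% beside 12.9%. Hox genes lie so close together that 1 DMR can count for several of them, so these gene counts are not independent of each other. The members with a gain in the body were *Hoxa3*, *Hoxa6*, *Hoxb2*, *Hoxb3*, *Hoxb4*, *Hoxb6* and *Hoxc4*, and *Hoxb5* held only its loss. The other members near a DMR, without one in the body, were *Hoxa2*, *Hoxa4*, *Hoxa5*, *Hoxa7*, *Hoxa10*, *Hoxa11* and *Hoxc5*. The remaining 23 members had none.

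Most DMRs lay near genes of the 3′ and middle parts of the clusters. Of the 22 members of paralog groups 1 to 8, 13 had a DMR within 10 kb, beside 27.6% of protein-coding genes. The nearest TSS was in one of these 22 genes for 46 of the 47 DMRs, of which 31 lay in HoxB. Of the 16 members of groups 9 to 13, which act in the posterior trunk, limbs and genital tract, 2 had a DMR within 10 kb. Both, *Hoxa10* and *Hoxa11*, shared the same one and were 2 of the 4 HoxA genes of these groups. HoxB had 2 genes in these groups, and HoxC and HoxD, with almost no DMRs at all, had 5 each. Paralog group and cluster were not separated here. *Hoxa9*, which is known from endothelial and blood cell biology, had none, and neither did *Hoxa13*, *Hoxb9*, *Hoxb13* or any HoxC or HoxD gene of these groups.

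**Figure D3:**
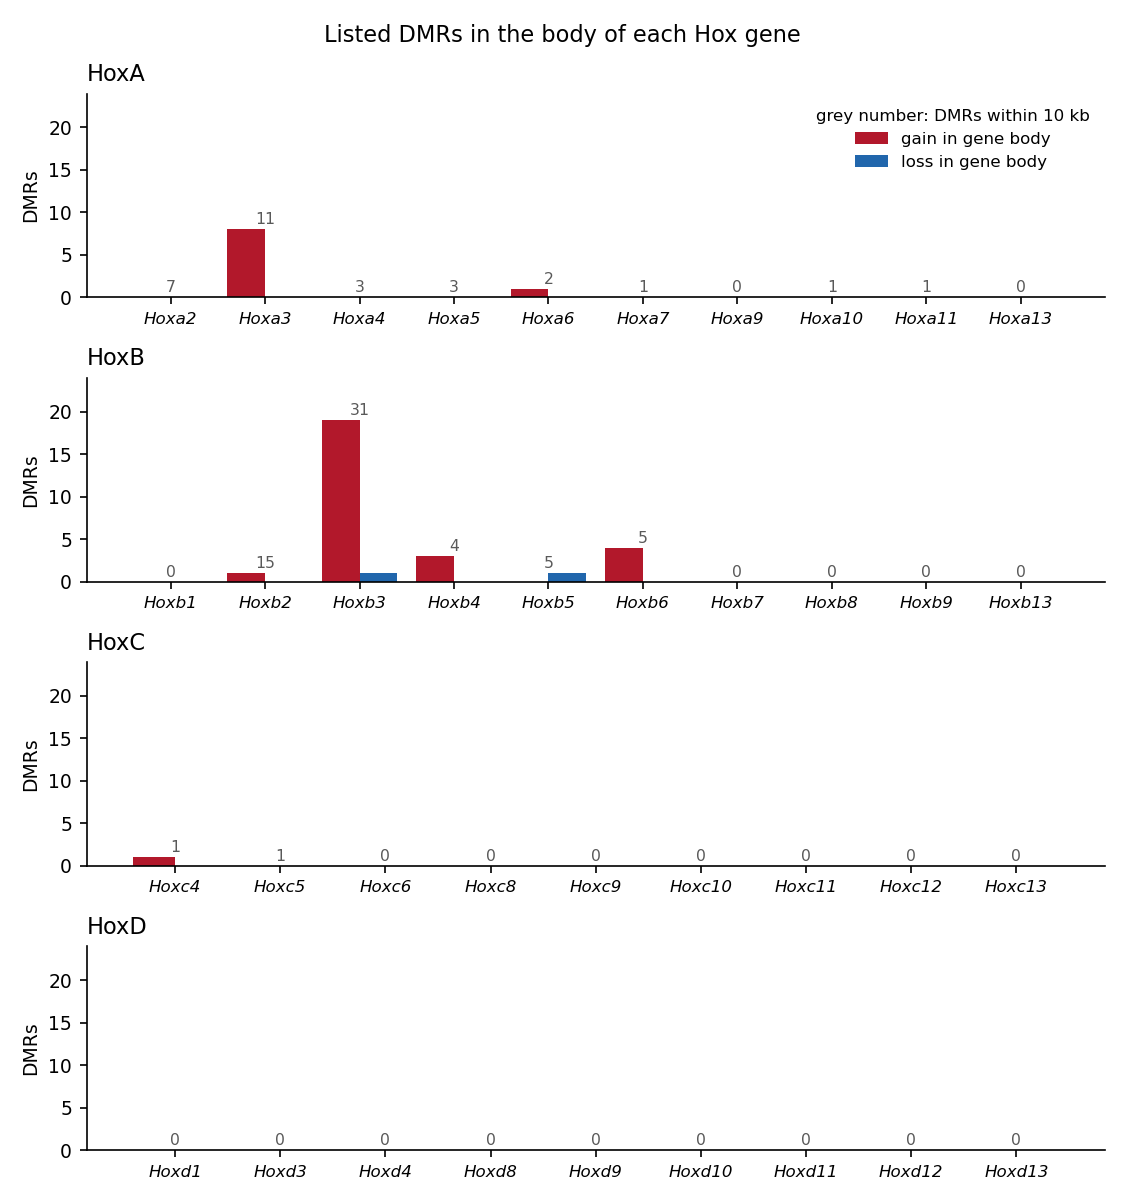
Number of listed DMRs (y axis) with their midpoint in the RefSeq body of each Hox gene (x axis, by paralog group within each cluster), with gains in red and losses in blue. Grey numbers give the DMRs within 10 kb of the gene. *Hoxb3* stands out with 19 gains, including those at *Hoxb4*, followed by *Hoxa3* with 8 and *Hoxb6* with 4. The HoxD panel is empty.

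Hox gains differed from the other gains of the list in level and in setting. They started low, at a median of 14.98% in infant EC (13.1% in HoxB and 25.4% in HoxA), and reached a median of 47.0% (46.5% and 54.9%). The 9911 gains of the whole list went from a median of 54.8% to 78.1%. An infant mean below 20% was found in 28 of the 44 Hox gains, or 63.6%, beside 14.6% of all gains. An infant mean of exactly 0% was listed for 3 Hox gains and for 11 gains in all. Only 3 Hox gains, or 6.82%, ended above 80% in young adult EC, beside 46.3% of all gains. The median difference was 28.7 points for Hox gains, 20.4 points for all gains and 23.3 points for all gains over CpG islands. No test of these contrasts was run, since neighbouring DMRs of a cluster are not independent.

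**Figure D4:**
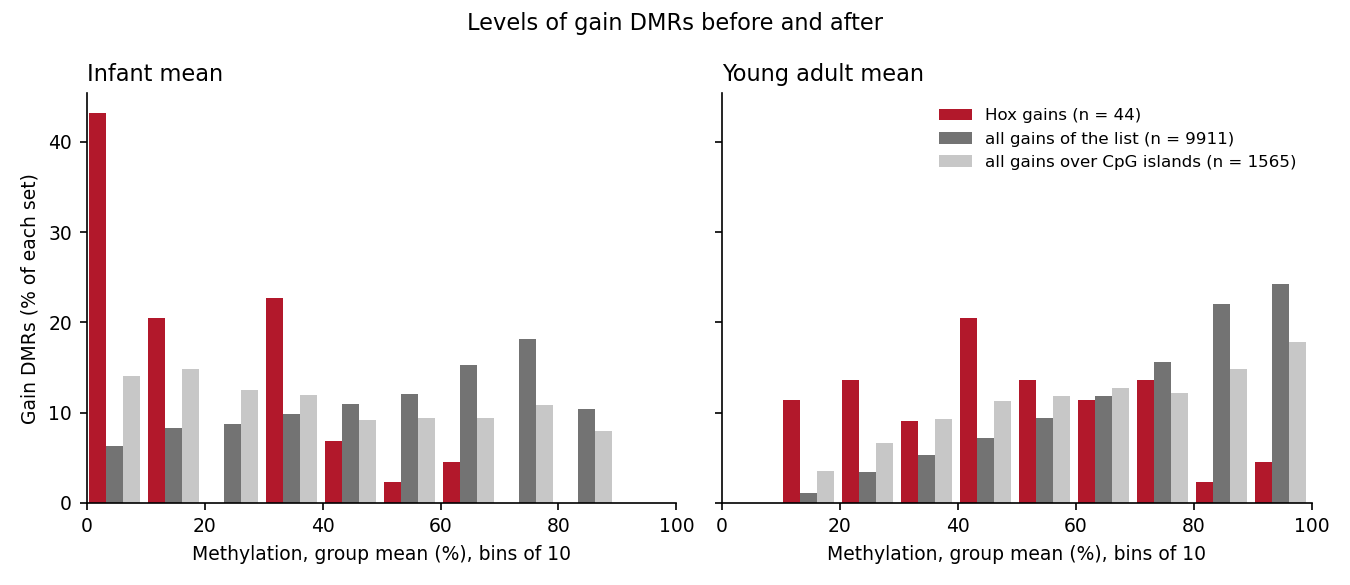
Share of gain DMRs (%, y axis) by mean methylation in bins of 10% (x axis) in infant (left) and young adult EC (right), for the 44 Hox gains, all 9911 gains and the 1565 gains over CpG islands. Hox gains pile up in the lowest infant bin, with 43.2% of them below 10%, and spread over the intermediate bins in young adult EC, where 24.3% of all gains lie in the highest bin.

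Most Hox DMRs lay over CpG islands. Of the 47 Hox DMRs, 36 overlapped a CpG island, or 76.6% beside 13.8% of the list, and all 36 were gains. Of all listed DMRs over islands, 61.7% were gains. Among gains only, the shares were 81.8% and 15.8%. The clusters are themselves rich in islands, which held 63.0% to 72.3% of the CpGs in the windows of the 4 clusters. Gains over islands in the whole list started at a median of 37.0% and ended at 66.4%, and 28.8% of them started below 20%. The 36 Hox gains over islands started at a median of 11.6%. The 8 Hox gains off islands started at 24.99%, and the 3 losses all lay off islands, although the loss of *Hoxb5* overlapped one when islands were defined by 500 bp windows. Hox gains were also dense in CpGs, with a median of 7.14 CpGs per 100 bp beside 2.70 for all gains and 7.02 for gains over islands. At least 5 CpGs were present in 15 of the 44, or 34.1%, beside 7.41% of all gains and 16% of gains over islands.

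The Hox DMRs stood close together. With DMRs joined into a run when at most 2 kb apart, 35 of the 47, or 74.5%, belonged to 8 runs of at least 3 DMRs, beside 15.1% of the list. Among the 28 pairs of neighbours within these and shorter runs, the median gap was 78.5 bp, 15 gaps were under 100 bp, and 26 pairs changed in the same direction. The 2 opposite pairs were the gain and loss in the first intron of *Hoxb3* and those 3′ of *Hoxa2*.

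The 47 DMRs were also counted by their place in the Hox genes. Shares of the whole list in the same classes were not computed, so the counts do not show whether gene starts were spared. By midpoint, 17 of the 47 lay in an exon of one of these genes, 11 of them in coding and 6 in untranslated sequence. A further 16 lay in introns, 5 at the 3′ end of a transcript, 1 in a promoter and 8 outside these classes. In the RefSeq table of promoters, which covers 250 bases before to 50 after each start, 24 windows of 22 members were found. They held 4 to 45 CpGs, with a median of 14.5. Of the windows, 10 were in HoxA, 3 in HoxB (*Hoxb1*, *Hoxb4* and *Hoxb8*), 1 in HoxC and 10 in HoxD. None overlapped a DMR, but nothing is read from this count, since HoxB with most of the DMRs had only 3 windows, and 0.96% of the listed DMRs overlapped a promoter window of any gene.

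The edge of the rule was clear in HoxB and less so in HoxA. In HoxA a gain of 23.6 points (from 19.4% to 43.0%) lay 10272 bp from *Hoxa13* and was just outside the 10 kb, and the outermost DMR inside was 5530.5 bp from *Hoxa2*. In HoxB the outermost DMR inside, the one upstream of *Hoxb2*, was 1592 bp from it, and the nearest outside were 30898.5 and 35915.5 bp away. In HoxC the nearest outside was 70877 bp from *Hoxc4*.

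Genes that work with or on Hox genes were counted from fixed lists. TALE homeodomain cofactors bind DNA together with Hox proteins, and 4 of 8 had a DMR within 10 kb, beside 27.6% of all protein-coding genes. *Meis1* held 15 losses and 0 gains in its body, with 4 gains in the 10 kb around it, and its median level went from 65.3% to 27.8%, with a median difference of -38.7 points. The others held gains, with 5 in *Pknox2* (median 17.6 points), 2 in *Pbx3* and 1 in *Meis2*.

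Of 21 Polycomb and trithorax genes, which keep Hox genes silent or active, 12 had a DMR within 10 kb, or 57.1% beside 27.6% of protein-coding genes, and 9 had a gain, or 42.9% beside 19.1%. *Kdm6b*, which removes the Polycomb mark, had 5 gains in its body, from a median of 33.0% to 66.0%, and *Cbx8*, a reader of that mark, had 2, from 25.3% to 57.3%. *Jarid2* and *Phc1* had 1 gain each, and *Phc2* had 1 gain and 1 loss. *Kmt2a*, the methyltransferase MLL1 that maintains Hox expression, had 1 loss of -39.4 points, and *Ezh1* had 1 loss of -38.9 points. Of 13 upstream regulators, 5 had a DMR within 10 kb, or 38.5% beside the same 27.6%. Retinoic acid, which activates the 3′ genes, signals through receptors of which *Rarb* held 4 gains, *Rara* 1 gain and 4 losses, and *Rxra* 3 gains and 1 loss.

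Of 11 genes next to the clusters, 5 had a gain within 10 kb, or 45.5% beside 19.1% of protein-coding genes, and 3 had one in the body, or 27.3% beside 12.9%. *Skap1*, beside HoxB, had 10 gains and 1 loss in its body, with a median difference of 25.4 points. *Skap2*, beside HoxA, had 5 gains and 1 loss. *Hibadh* had 1 gain and *Cbx5*, beside HoxC, had 1 loss of -33.9 points. Of 17 non-coding genes in the clusters, 9 had a DMR within 10 kb, or 52.9%, for which the share of protein-coding genes is no matching background. *Hoxb3os* held 8 gains and *Hoxb5os* 4 gains and 1 loss. These counts repeat DMRs already counted among the 47, as do those of *Hoxaas2*, *Hoxaas3* and *Hotairm1* above, while the 1 gain of *Halr1* lay outside the 10 kb. Long genes can hold more DMRs than short ones, and gene length was not adjusted for in these counts.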

How the data were processed

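T-WGBS of sorted lung EC was analysed from 3 infant and 3 young adult samples. Reads had been mapped by the authors to mm10 (BWA 0.6.1 in the submitters' processing notes). Their DMRs needed 3 or more consecutive CpGs that passed p under 0.05 and a difference of 10% or more, at a coverage of 8-fold or more in 2 or 3 samples per group. The deposited values are the authors' group means as a fraction, shown here as percent. A column with the authors' direction of change was not used, and values per sample were not analysed here.

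The start and end in the list were the C of the first and last CpG, counted from 0, in 18333 of 18333 DMRs. Coordinates are printed from 1 and include the G of the last CpG. Genes, transcripts, promoters and sequences came from RefSeq (GRCm38.p6). Midpoints were classed by curated transcripts as promoter (from 1 kb before to 100 bp after the TSS), 3′ end (up to 1 kb after the transcript), exon or intron. CpG islands were unions of 200 bp windows with a GC share of 50% or more and more than 0.6 of the expected CpGs. Python 3.11.15, pandas 2.3.3 and numpy 2.4.6 were used, and the scripts were tested on simulated regions and sequence.

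The members and lists were chosen with earlier results of these data known. A DMR was described singly when it was among the 3 largest gains, the 3 largest losses or the 3 with the most CpGs of its cluster, lay within 1 kb of a TSS or in an exon. Other DMRs named to complete a group or to describe a gene were chosen after their values were seen. The sequence of 1 further region named by the rule and 1 gene of the lists are not reported here. Genes outside the 38 were taken from fixed lists and named where the body held a DMR. No test between the groups was run.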

Additional observations from a re-analysis of the deposited data

How the results depend on the processing

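The number of Hox DMRs, their share of gains and their median difference were recomputed under 10 other settings. With the midpoint inside a gene body, distances of 2 or 50 kb, any overlap with the window, curated transcripts only, a difference of at least 20 points or the authors' nearest promoter, the number ranged from 35 to 50, the share of gains from 93.6% to 95.5% and the median difference from 28.0 to 31.1 points. With at least 5 CpGs per DMR, 15 remained, 100% of them gains, with a median of 32.2 points. Joining gains, or losses, that lay no more than 500 bp apart gave 24 regions, of which 87.5% were gains, with a median of 27.2 points. Leaving out HoxB, an alternative chosen after seeing the data, gave 16 DMRs, of which 93.8% were gains, with a median of 26.2 points. Islands from 500 bp windows, a longer and stricter definition, overlapped 68.1% of the Hox DMRs in place of 76.6%, and 2.91% of the list. Some DMRs, the loss of *Hoxb5* among them, overlapped only the longer islands. No pairing of infant with young adult samples is given, so no paired analysis was run. Leaving out single replicates was not run because values per sample were not analysed here. The depth per DMR is unknown, which limits every value, and 23 of the 47 DMRs held 3 CpGs.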
